A study of Mus musculus with 6 samples.

Results

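Ciart, Dbp and Nr1d1 are output genes of the circadian clock, and their transcripts were followed across the prelimbic cortex (PL) of mice exposed to restraint stress. The 3 genes are the members, each with 1 probe, of 25697 probes on the array. They were chosen by the fold change of their probes on these same arrays, since the study listed them among probes that differed at least 1.2-fold after chronic restraint or after the brief restraint that followed it. All 3 are in the study's list for CRST against CON, and Ciart is also in its list for CRST+RS5 against CRST. The higher level in CRST than in CON is thus a description of the choice and carries no test.

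RNA was measured on 6 bead arrays, 2 for each group, all from the PL of male C57BL/6 mice aged 3 months. Naive mice served as controls (CON). In CRST a daily restraint of 2 h was given for 14 days, and in CRST+RS5 the same was followed by 5 min of restraint a day for 14 days more. Tissue was taken on post-stress day 22 and pooled from 6 to 7 animals per array, so an array stands for a pool and not for an animal. The groups were prepared as 2 independent sets, and which arrays form a set is not stated. The mice lived under a light/dark cycle with light from the early morning, and restraint began in the morning. The hour at which the PL was collected is not given in the sources used here, nor whether it was the same for all groups. For genes of the clock, a difference in that hour and a difference in restraint cannot be told apart here.

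The circadian clock is a transcription loop that runs in most cells, including those of the cerebral cortex. The activators CLOCK and BMAL1 bind E-box sequences and switch on the period and cryptochrome genes, whose products then shut the activators down. The same activators drive output genes whose transcripts rise and fall strongly over the day. Dbp encodes an activator of the PAR bZIP family that binds D-box elements. Nr1d1 encodes REV-ERB alpha, a nuclear receptor that represses the BMAL1 gene through ROR elements. Ciart, also called Chrono, encodes a repressor that acts on CLOCK and BMAL1 themselves. NFIL3 represses at D-boxes where DBP activates.

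The promoters of Ciart and Nr1d1 are shown because a clock motif was found in them. The windows searched were the 250 bases before the RefSeq start site in the build GRCm38.p6, read 5′ to 3′ on the strand of the gene. Capitals mark an E-box (CACGTG) or the related E'-box (CACGTT, here on the opposite strand and so read as AACGTG). The last 29 bases of the Ciart window and the last 147 of the Dbp window lie inside the annotated gene, so the former are left out and the Dbp window is not shown.
Ciart, chr3:95882258-95882478, minus strand: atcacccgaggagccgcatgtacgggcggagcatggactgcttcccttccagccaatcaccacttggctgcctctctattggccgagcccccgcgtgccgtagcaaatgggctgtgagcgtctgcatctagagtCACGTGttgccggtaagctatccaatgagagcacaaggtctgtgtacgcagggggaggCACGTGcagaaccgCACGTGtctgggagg
Nr1d1, chr11:98775378-98775627, minus strand: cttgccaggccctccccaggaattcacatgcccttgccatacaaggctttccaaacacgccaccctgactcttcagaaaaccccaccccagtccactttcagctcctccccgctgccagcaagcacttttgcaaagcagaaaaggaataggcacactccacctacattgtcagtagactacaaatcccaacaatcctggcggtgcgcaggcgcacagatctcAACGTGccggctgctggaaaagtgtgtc
The Ciart window held 3 E-boxes, which began 116, 58 and 44 bases before the start site. At least 1 E-box was found in 6.02% of 32851 promoter windows of the same length, and at least 3 in 0.0609%. The Nr1d1 window held 1 E'-box, beginning 28 bases before the start site, a motif present in 3.85% of windows. None of the motifs searched was found in the Dbp window, chr7:45704997-45705246 on the plus strand. Besides both E-box forms these were the D-box (TTATGTAA, in 0.819% of windows, and TTACGTAA, in 0.113%) and the core of the ROR element (TAGGTCA, 2.23%). The cAMP response element (TGACGTCA, 1.55%) and the glucocorticoid response element (AGAACA, any 3 bases, then TGTTCT, 0.00913%) were searched as well. Both strands were read, and no match overlapped another. A match is a stretch of letters and not a measured binding site. Only 103 bases of the Dbp window lie before the annotated gene, and sites outside the window were not searched.

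Ciart, at chr3:95878500-95882257, was read by probe ILMN_3029489 and was detected on all 6 arrays. Its log2 signal was 9.53 and 9.87 on the CON arrays, 9.99 and 10.48 on the CRST arrays, and 10.49 and 10.63 on the CRST+RS5 arrays. Every CRST array lay above both CON arrays and every CRST+RS5 array above both CRST arrays, although the higher CRST and the lower CRST+RS5 array differed by only 0.02. The mean was 9.70 ± 0.24 in CON, 10.23 ± 0.34 in CRST and 10.56 ± 0.10 in CRST+RS5 (SD, n = 2 arrays each).

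Dbp, at chr7:45705100-45710203, was read by probe ILMN_2616226 and was detected on all 6 arrays. Its log2 signal was 12.38 and 12.81 in CON, 12.90 and 13.27 in CRST, and 13.11 and 13.55 in CRST+RS5. Both restrained groups lay above CON on every array, while the CRST and CRST+RS5 arrays overlapped. The means were 12.60 ± 0.30, 13.08 ± 0.26 and 13.33 ± 0.31 in the same order (SD, n = 2 arrays each).

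Nr1d1, at chr11:98767932-98775377, was read by probe ILMN_2749669 and was detected on all 6 arrays. Its log2 signal was 8.94 and 9.19 in CON, 9.30 and 9.36 in CRST, and 9.36 and 9.38 in CRST+RS5. The CON arrays were lower than all 4 others, and the 4 arrays of restrained mice lay close together. The means were 9.06 ± 0.18, 9.33 ± 0.05 and 9.37 ± 0.02 (SD, n = 2 arrays each). In pooled tissue a change in the share of the cells that express a gene and a change in the RNA per cell cannot be told apart.

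**Figure D1:**
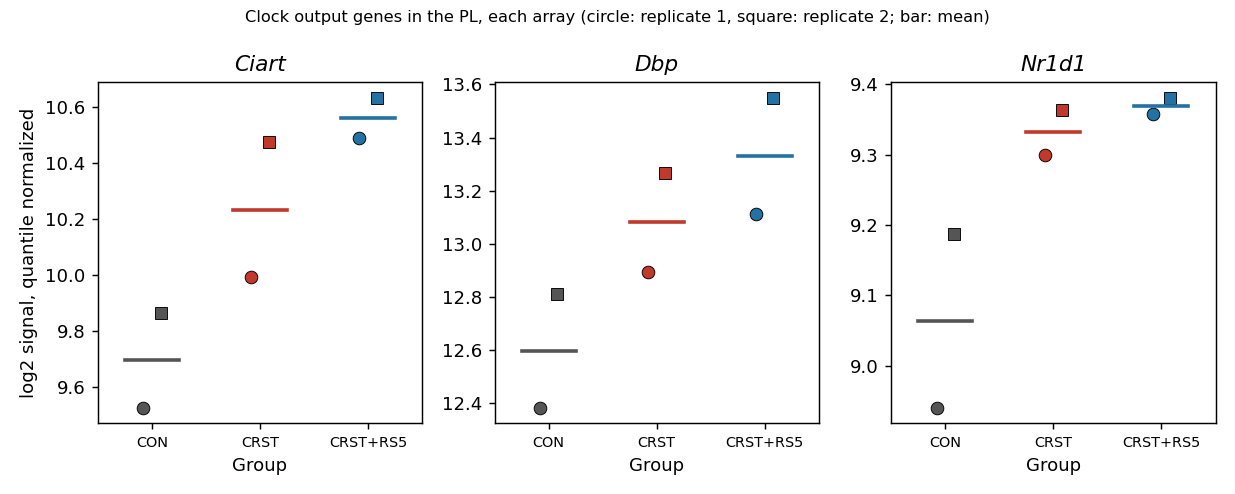
log2 signal after quantile normalization (vertical axis, not starting at 0) of Ciart, Dbp and Nr1d1 on each array, by group. Circles are replicate 1, squares replicate 2 and bars the mean of the 2 arrays; both CON arrays are the lowest for each gene, and the CRST+RS5 mean is the highest.

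The separation of CON from CRST appeared only after the arrays were brought to a common scale. Before normalization the Ciart signal was 663.5 and 1012 in CON, 918.8 and 1778 in CRST, and 1352 and 1528 in CRST+RS5. CON replicate 2 was then above CRST replicate 1, and CRST replicate 2 was the highest array. Dbp signals were 4838 and 7761 in CON, 7034 and 12009 in CRST, and 8438 and 11245 in CRST+RS5, and Nr1d1 signals were 443.2 and 631, 572.7 and 807.5, and 619.4 and 656.8. For these genes too, CON replicate 2 had a higher raw signal than CRST replicate 1. For Nr1d1 it was also above CRST+RS5 replicate 1 (631 against 619.4), so CRST+RS5 was apart from CON only after normalization. The median raw signal of an array was 187.4 and 216 in CON, 185.6 and 230 in CRST, and 200.6 and 207.3 in CRST+RS5, so arrays of replicate 2 were brighter as a whole.

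Chronic restraint was compared with CON first, the contrast from which the members were chosen. The difference of group means (log2, CRST minus CON) was 0.54 for Ciart (SE 0.16), 0.48 for Dbp (SE 0.19) and 0.27 for Nr1d1 (SE 0.10), with n = 2 arrays per group. These are 1.45-fold, 1.4-fold and 1.2-fold. All 3 were past 1.2-fold, as the choice requires, against 0.78% of the 13083 tested probes, and all 3 had arrays that did not overlap, against 15% of probes. Nr1d1 sat just inside the limit of 0.26 on the log2 scale, and a probe for Per2 at 0.21 just outside it. For Ciart the difference exceeded the gap between the replicates of either group (0.34 in CON, 0.48 in CRST). The same held for Dbp, with gaps of 0.43 and 0.37, and narrowly for Nr1d1, with gaps of 0.25 and 0.06. With limma 428 probes, or 3.27%, had an unadjusted p under 0.05 in this comparison and none an adjusted one. Single arrays weighed heavily. Without CRST replicate 2, Ciart stood at 0.30, Dbp at 0.30 and Nr1d1 at 0.24, and without CON replicate 1 Dbp stood at 0.27 and Nr1d1 at 0.14.

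CRST+RS5 was compared with CRST to see whether brief restraint moved these genes further. The differences (log2, CRST+RS5 minus CRST) were 0.33 for Ciart (SE 0.16), 0.25 for Dbp (SE 0.19) and 0.04 for Nr1d1 (SE 0.10). None of the 3 was lower in CRST+RS5, though Nr1d1 stood at -0.07 when arrays were scaled to a common median, a scaling that moved the median of all probes to -0.11. Ciart alone was past 1.2-fold and alone had arrays without overlap, while 2.89% of all probes were higher by that much and 16.9% were higher without overlap. Ciart's place in this contrast belongs to its choice. For Dbp and Nr1d1, which this contrast did not choose, limma gave adjusted p = 0.758 and 0.932, with the CRST arrays shared with the contrast that did. Of all tested probes 8.46% had an unadjusted p under 0.05, and none an adjusted one. All 3 differences were smaller than the gap between the CRST replicates. They depended on which array was present. Ciart ranged from 0.09 without CRST replicate 1 to 0.57 without CRST replicate 2, and was just below 1.2-fold, at 0.26, without CRST+RS5 replicate 2. Dbp stood at 0.06 or 0.44 when the first or the second CRST array was absent, and at 0.47 or 0.03 when the first or the second CRST+RS5 array was. Nr1d1 lay between 0.01 and 0.07 in these settings.

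CRST+RS5 against CON gave the widest separation of Ciart and Dbp. The differences (log2, CRST+RS5 minus CON) were 0.87 for Ciart (SE 0.16), 0.73 for Dbp (SE 0.19) and 0.31 for Nr1d1 (SE 0.10), or 1.82-fold, 1.66-fold and 1.24-fold with n = 2 arrays per group. All 3 were past 1.2-fold and had arrays without overlap, against 2.57% and 17.7% of all probes. By size from the highest, Ciart was number 18 of 13083 probes, Dbp number 29 and Nr1d1 number 210. The median of the 3 genes was 0.73 against -0.011 over all probes. The differences exceeded the gaps between replicates in both groups for each gene. Dbp and Nr1d1 did not pass the test of limma across all probes, with adjusted p = 0.519 and 0.566. Over the alternatives these p-values ranged from 0.0566 to 1. No tested probe passed an adjusted p of 0.05 in this comparison (1045 of 13083, or 7.99%, had an unadjusted p under 0.05), and the smallest adjusted p was 0.331. This comparison shares its CON arrays with the contrast that chose the genes, so its values are not independent of the choice. For Ciart it is the sum of both contrasts that chose the gene, and its value is a description with no test. Without CON replicate 1, Nr1d1 was below 1.2-fold, at 0.18.

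**Figure D2:**
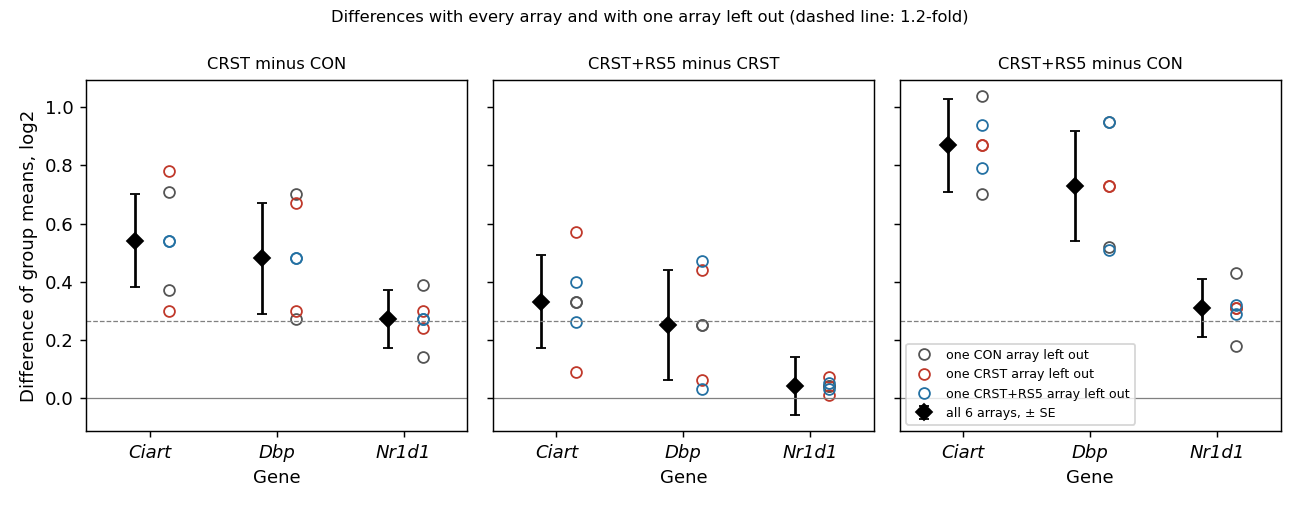
Difference of group means (log2, vertical axis) of Ciart, Dbp and Nr1d1 in the 3 comparisons. Diamonds with bars are the values from all 6 arrays with their standard error from limma, open circles the values with 1 array left out, coloured by its group, and the dashed line marks 1.2-fold; no circle falls below 0, and Nr1d1 stays near 0 in CRST+RS5 minus CRST.

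The order of the group means was thus CON, CRST, CRST+RS5 for all 3 genes, an order of rising means that 15.6% of all probes had, while 19.8% had the reverse. The steps were unequal. Ciart and Dbp had part of their distance from CON in the second step, whereas Nr1d1 had nearly all of it in the first. For none of the genes did the second step exceed the spread of the CRST arrays. Whether the genes differ from each other in this respect was not tested.

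Of 28 genes of the clock list, 5 carry a name on this array through the study's lists, which pair probes with symbols. Besides the members these are Per2 and LOC100046232, so no values are given for the activators, the cryptochromes, the other PAR bZIP factors or the other period genes. Under these symbols they are in neither of the study's lists of probes that differed at least 1.2-fold. Whether they changed less, were not on the array or were listed under another symbol was not tested. The named genes are thus only those that the study found changed. In CRST minus CON the 3 members and 1 of 2 Per2 probes were higher by at least 1.2-fold, as were 0.78% of all probes. LOC100046232 was lower by that much, as were 0.864% of all probes. All of these names come from the choice on the same arrays, so the count is no independent evidence.

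Per2, at chr1:91415977-91459351, encodes a period protein of the inhibitory arm of the clock and is induced by glucocorticoids in the mouse. Probe ILMN_2987862 read 11.08 and 11.43 in CON, 11.36 and 11.57 in CRST, and 11.55 and 11.95 in CRST+RS5 (log2 signal). Probe ILMN_2987863 read 10.72 and 10.99, 11.10 and 11.21, and 11.07 and 11.64. Both probes had CRST+RS5 above CON on every array, as did 17.7% of all probes, while their CRST and CRST+RS5 arrays overlapped. Before normalization CRST+RS5 overlapped CON too: CON replicate 2 (3005 and 2222) was above CRST+RS5 replicate 1 (2793 and 2006) for the 2 probes. Relative to CON, CRST differed by 0.21 and 0.30 and CRST+RS5 by 0.50 and 0.50 (log2), the latter with adjusted p = 0.566 and 0.604 from limma. The study listed the first probe for CRST+RS5 against CRST and the second for CRST against CON. Their values in CRST+RS5 minus CON share arrays with that choice and are not independent of it. Relative to CRST, CRST+RS5 differed by 0.28 and 0.20. These values rested on single arrays. Without CRST+RS5 replicate 2, CRST+RS5 minus CON was 0.30 and 0.21 and CRST+RS5 minus CRST was 0.09 and -0.09. Without CRST+RS5 replicate 1 the latter was 0.48 and 0.49, and CRST+RS5 minus CON was 0.70 and 0.79 by the same omission. CRST minus CON was 0.03 and 0.16 without CON replicate 1, 0.39 and 0.43 without CON replicate 2, and 0.11 and 0.24 without CRST replicate 2. In CRST+RS5 minus CON the omission of CON replicate 1 gave 0.32 and 0.36. With arrays scaled to a common median CRST+RS5 minus CRST was 0.12 and 0.04, where the median of all probes was -0.11.

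LOC100046232 is a predicted gene that the study's table describes as an NFIL3 transcription factor. Its transcript accession was not found in the RefSeq table of GRCm38.p6, so it is not placed on the genome here. Its log2 signal was 10.27 and 10.03 in CON, 9.80 and 9.72 in CRST, and 9.63 and 9.56 in CRST+RS5. No 2 groups overlapped, and the order was the reverse of that of Ciart and Dbp. Of all probes, 14.3% were lower without overlap in CRST minus CON and 21.8% in CRST+RS5 minus CRST. Group means that fell from CON to CRST to CRST+RS5 were seen in 19.8% of probes. CRST was 0.39 below CON, given as a log2 difference of -0.39 (SE 0.10), CRST+RS5 minus CRST was -0.16 and CRST+RS5 minus CON was -0.55, the lowest but 4 of 13083 probes. The last had adjusted p = 0.372 from limma, and 22.2% of all probes were lower without overlap, 1.31% by at least 1.2-fold. CRST+RS5 minus CON uses the CON arrays on which the study listed this probe, in CRST against CON. Its rank and p-value there are thus not independent of the choice. In CRST+RS5 minus CRST, where LOC100046232 was within 1.2-fold, 1.75% of probes were lower by that much. The direction was the same in every alternative run, with -0.43 to -0.68 for CRST+RS5 minus CON and -0.12 to -0.28 for CRST+RS5 minus CRST. The lowest of the latter, -0.28, came with arrays scaled to a common median and was past 1.2-fold. That scaling also moved the median of all probes to -0.11. With it 1216 of 13083 probes were lower by at least 1.2-fold, against 229 in the main analysis.

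**Figure D3:**
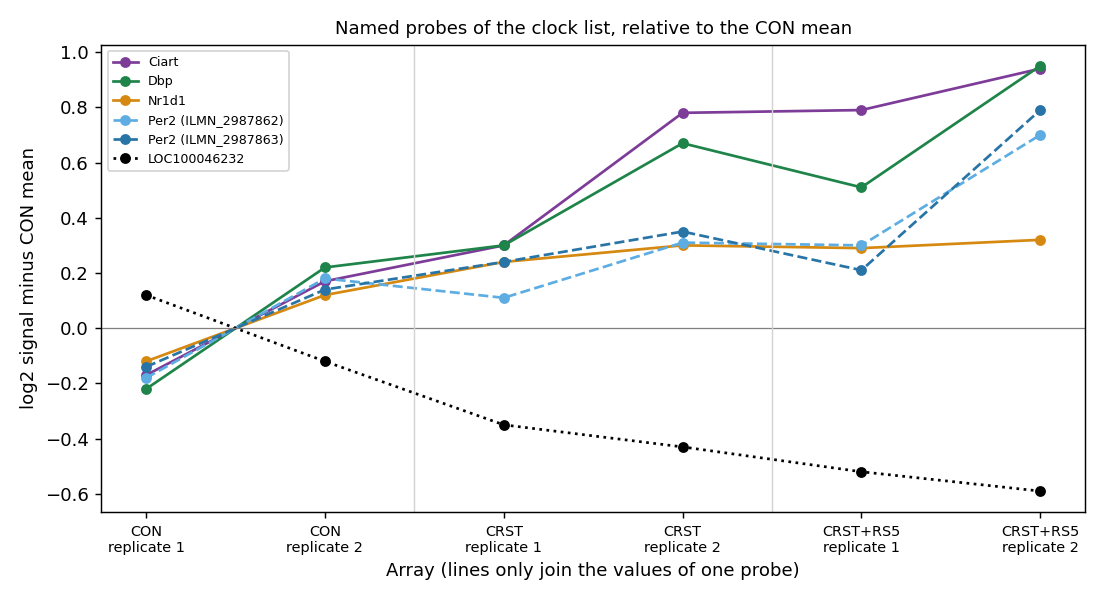
log2 signal minus the mean of the CON arrays (vertical axis) on each of the 6 arrays for the 6 named probes of the clock list; lines only join the values of a probe. Ciart and Dbp reach 0.94 and 0.95 on CRST+RS5 replicate 2, Nr1d1 lies at 0.24 to 0.32 in restrained mice, and LOC100046232 lies below the CON mean on every array of restrained mice.

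The members were then compared with all other named probes by pattern. Each probe was taken as its log2 signal minus its own mean over the 6 arrays, and likeness was measured as the root mean square (RMS) difference between probes over these arrays. Among named probes Dbp was the nearest to Ciart and Ciart the nearest to Dbp, at an RMS of 0.109, where the median over all probes was 0.411 from Ciart and 0.381 from Dbp. Of all 13083 probes, named or not, 1 was nearer. Per2 came next, with probe ILMN_2987862 at 0.198 from Ciart and both probes at 0.133 and 0.141 from Dbp. Behind them followed Dner, a Notch ligand of neurons (0.205 from Ciart), Timp3, an inhibitor of metalloproteinases (0.213 from Ciart), Scx (0.199 from Dbp) and Smpdl3b (0.223 from Ciart and 0.208 from Dbp). The other Per2 probe, ILMN_2987863, was farther from Ciart than Dner, Timp3 and Smpdl3b, at 0.226. Timp3, Scx and Smpdl3b differed from the members in the first step: CRST minus CON was 0.09, 0.09 and 0.06.

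Nr1d1 had other neighbours than Ciart and Dbp. Its nearest named probes were Ube2q1, a ubiquitin-conjugating enzyme, at an RMS of 0.0285 and Ddah2 at 0.0399, followed by Abhd17c (0.0663), Fam171a1 (0.0687) and Neurl1b (0.0691), where the median over all probes was 0.179. These were higher in CRST than in CON by 0.26 to 0.28 and within 0.10 of CRST in CRST+RS5. Many probes without a name lay nearer to Nr1d1: 1 than Ddah2, 28 than Abhd17c and 33 than Fam171a1 or Neurl1b. Nr1d1 itself lay at 0.262 from Ciart and 0.235 from Dbp. Its nearest clock probe was LOC100046232 with the sign turned, at 0.102.

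The named probes that mirrored Ciart and Dbp included genes induced by neuronal activity. Npas4, an activity-dependent transcription factor of neurons, was nearest to the mirrored pattern of both, at an RMS of 0.149 from Ciart and 0.151 from Dbp, and none of the 13083 tested probes was nearer. Its log2 signal was 9.39 and 8.99 in CON, 9.01 and 8.69 in CRST, and 8.65 and 8.65 in CRST+RS5. LOC100046232 lay at 0.176 from Ciart and 0.163 from Dbp. Nell2, a secreted protein of neurons, lay at 0.188 and 0.165, Wdfy3, an adaptor of autophagy, at 0.219 and 0.159, Fos at 0.204 from Ciart and Zfp326 at 0.199 from Dbp. CRST+RS5 minus CON was -0.54 for Npas4, -0.89 for Fos, -0.45 for Nell2, -0.39 for Wdfy3 and -0.34 for Zfp326. For Nr1d1 the mirrored neighbours were H2-T23, a nonclassical MHC class I gene (0.0227), Hist1h2be (0.0416), Ogfod2 (0.0483), Pdxk (0.0493) and Zfp326 (0.0673). Probes without a name mirrored Nr1d1 more closely: 2 than Hist1h2be, 7 than Ogfod2, 8 than Pdxk and 33 than Zfp326. For Dbp, 10 such probes were nearer than Zfp326. With 6 arrays in 3 groups, and with names that exist only through the study's choice on these arrays, these patterns are a description.

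The arrays also differed in markers of other cell types. In each marker list only genes named through the study's lists entered. These genes were chosen on the same arrays for a difference of at least 1.2-fold, so shifts in their medians and sums are partly built in. The values are a description. Medians of the members' log2 signal, relative to the CON mean, were -0.17 and 0.17 on the CON arrays, 0.30 and 0.67 on the CRST arrays, and 0.51 and 0.94 on the CRST+RS5 arrays. Of 25 listed genes of myelin and oligodendrocytes, 19 are named, and their median was 0.87 on CRST replicate 2 and -0.25 to 0.04 on the other arrays. Their summed normalized signal was 82475 to 87675 in CON, 72118 to 158685 in CRST and 74938 to 85437 in CRST+RS5. Of 21 listed genes of meningeal fibroblasts, 19 are named, with medians of -0.55 and -0.07 in CRST and 0.58 and 0.75 in CRST+RS5. Their sums were 14256 to 20712 in CON, 10460 to 15874 in CRST and 30248 to 31225 in CRST+RS5. Of 12 listed genes of endothelium and vessel wall, 9 are named, with medians of -0.17 and -0.11 in CRST and 0.28 and 0.39 in CRST+RS5 and sums of 8015 to 8940, 6614 to 7617 and 10562 to 11949 in the 3 groups.

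Of 17 listed genes of the olfactory mucosa, 16 are named, and their median was 1.77 on CRST+RS5 replicate 2 and -0.19 to 0.09 on the others. Their sums were 3583 to 4092 in CON, 3456 to 3647 in CRST and 3997 to 34776 in CRST+RS5, and 5 of the 16 were detected on neither CON array. The 4 named of 6 astrocyte genes had medians of -0.18 to 0.21 on all arrays, and their sums were 8483 to 8795, 7524 to 7663 and 8959 to 9963. Cortical neuron genes, the markers of the labelled tissue, had 8 of 11 named and 7 detected on all arrays, with medians of -0.22 and -0.14 in CRST+RS5 and of 0.00 and 0.09 in CRST, and sums of 31579 to 31908, 29090 to 31118 and 31472 to 32478. Of 11 listed immediate early genes 7 are named, Npas4 and Fos among them, with medians of -0.48 and -0.34 in CRST and -0.54 and -0.55 in CRST+RS5, and sums of 16545 to 18270, 12619 to 13671 and 11881 to 12090. The part of these lists in the values of Ciart, Dbp and Nr1d1 was not tested. With CRST replicate 2 and CRST+RS5 replicate 2 both left out, CRST+RS5 minus CON was 0.79 for Ciart, 0.51 for Dbp and 0.29 for Nr1d1, and CRST minus CON was 0.30, 0.30 and 0.24.

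**Figure D4:**
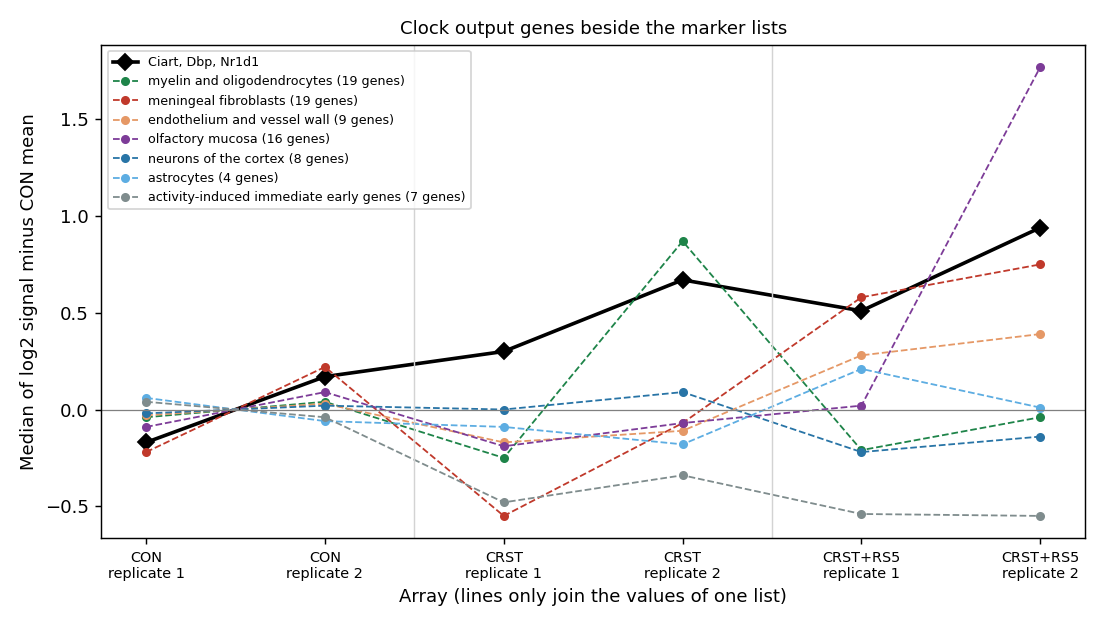
Median over genes of the log2 signal minus the CON mean (vertical axis) on each array, for Ciart, Dbp and Nr1d1 together and for 7 marker lists with their number of named genes; lines only join the values of a list. The myelin list stands out at 0.87 on CRST replicate 2 and the olfactory mucosa list at 1.77 on CRST+RS5 replicate 2. Meningeal fibroblast genes (0.58 and 0.75) and genes of endothelium and vessel wall (0.28 and 0.39) are raised on both CRST+RS5 arrays. On all 4 arrays of restrained mice the clock output genes lie above the CON mean and the immediate early genes below it.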

How the data were processed

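Total RNA from pooled PL tissue was labelled with biotin and hybridized to Illumina mouse Ref-8 bead arrays. GenomeStudio 2011.1 was used by the authors to read the arrays. Per the file headers, the deposited table gives an average signal intensity per probe, and beside each intensity the deposited table holds a detection p-value. Background subtraction is not given in the sources used here. A second deposited table has the authors' own log2 values after quantile normalization.

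Here the deposited intensities were taken to log2 and quantile normalized together (6 arrays; R 4.3.3, limma 3.58.1), with background left as deposited. Against the authors' log2 values r was at least 0.999996, with a median offset of 0.06. Of 25697 probes, 13083 were tested, namely those detected (p under 0.05) in both replicates of 1 or more groups. limma was fitted over the 3 groups, with Benjamini-Hochberg adjustment over all tested probes. The criterion of 1.2-fold is that of the study's methods. The number of arrays limits the precision, and p-values measure the spread between pools.

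Names came from Supplementary Data 2 and 3, which name 899 probes, of which 679 were tested. Their fold-change columns were not used. Each member symbol has 1 probe there. Genes were named by a rule: the members, the clock list, and the 5 nearest and 5 mirrored named probes of each member. Members, lists, rule and tests were chosen with earlier results of these data known. Promoters came from RefSeq (GRCm38.p6), where all 3 members matched. Gene positions were matched by RefSeq accession. The fit was first tested on simulated data with known changes. The methods name 2 independent sets of the groups. Arrays were left unpaired, since neither labels nor methods say that a replicate number marks a set.

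Alternatives covered the scaling of arrays, the authors' log2 values, neqc, 50 added before log2, looser and stricter detection, a block for replicate number, single arrays left out and separate fits; leaving out CRST replicate 2 and CRST+RS5 replicate 2 together was chosen after seeing the data.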

Additional observations from a re-analysis of the deposited data

How the results depend on the processing

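The direction of each member was the same in all 3 comparisons under every alternative run, except for Nr1d1 in CRST+RS5 minus CRST. There Nr1d1 became -0.07 with arrays scaled to a common median, a scaling under which the median of all probes was -0.11. The cause was not tested. With all arrays kept, Nr1d1 lay between 0.25 and 0.35 in CRST minus CON and between 0.25 and 0.40 in CRST+RS5 minus CON, at times under 1.2-fold. In CRST+RS5 minus CRST the number of the 3 members higher by at least 1.2-fold, 1 in the main analysis, was 0 with the common median and ranged from 0 to 2 with 1 array left out. The median of the members in CRST+RS5 minus CON, 0.73, ranged from 0.51 to 0.95 with 1 array left out, and was 0.51 with CRST replicate 2 and CRST+RS5 replicate 2 both left out. In the main analysis limma called no probe at an adjusted p of 0.05 (428, 1107 and 1045 at an unadjusted p under 0.05 in CRST minus CON, CRST+RS5 minus CRST and CRST+RS5 minus CON). With 1 array left out the numbers were 0 to 14, 0 to 31 and 0 to 11, with the first 2 maxima without CRST replicate 1 and the last without CRST+RS5 replicate 1; 6 and 20 passed in CRST+RS5 minus CRST without CRST replicate 2 and CRST+RS5 replicate 1, and 1 in CRST+RS5 minus CON without CRST+RS5 replicate 2. With both arrays left out they were 3 in CRST+RS5 minus CRST and 1 in CRST+RS5 minus CON. A lone array is then assumed to vary like the other groups. The share of all probes higher by 1.2-fold was 5.41%, 7.44% and 7.09% with neqc, where the main values are 0.78%, 2.89% and 2.57%. With scaling to a common median 244 probes were higher and 65 lower in CRST minus CON (102 and 113 in the main analysis), 211 and 1216 in CRST+RS5 minus CRST (378 and 229), and 219 and 430 in CRST+RS5 minus CON (336 and 172). With neqc 690, 1066 and 1001 were lower. With 50 added before log2, 61 were higher and 69 lower in CRST minus CON, and 138 and 114 lower in the other comparisons. With 1 array left out, 102 to 423, 378 to 642 and 299 to 618 probes were higher.

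Blocking on the replicate number gave 34 probes in CRST+RS5 minus CRST, none of them a member, and 0 in the other comparisons (671 and 1337 at an unadjusted p under 0.05). In CRST+RS5 minus CON the adjusted p under this block was 0.0566 for Dbp and 0.332 for Nr1d1. Deviations of same-numbered arrays from their group means had r = 0.247 (CON with CRST), 0.259 (CRST with CRST+RS5) and 0.0509 (CON with CRST+RS5). The numbers are not taken to pair the arrays. Between arrays of the same number, CRST+RS5 minus CRST was 0.50 and 0.16 for Ciart, 0.22 and 0.28 for Dbp and 0.06 and 0.02 for Nr1d1 (numbers 1 and 2), and CRST minus CON was 0.47 and 0.61, 0.51 and 0.45, and 0.36 and 0.18. For all 3 members replicate 2 was the higher array in each group, as for 15.4% of all probes.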

Other observations

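A probe without a name, ILMN_3102736, had the pattern nearest to both Ciart and Dbp of all 13083 tested probes, at an RMS difference of 0.0981 and 0.0974. It was singled out after its values were seen. Its log2 signal was 9.80 and 9.94 in CON, 10.21 and 10.53 in CRST, and 10.48 and 10.75 in CRST+RS5. CRST arrays lay above CON arrays, and the lower CRST+RS5 array lay just under the higher CRST array. CRST minus CON was 0.50 and CRST+RS5 minus CON was 0.74 on the log2 scale. The tables used here do not pair this probe with a gene.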
